A study of Mus musculus with 21 samples.

Results

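Fatty acids are burned in a pair of organelles, and the genes described here are 38 mouse genes of that work among the 27179 genes of the count tables. They were taken by name, through the gene number of each symbol, in all 21 libraries, and no measured value enters the rule, although the set was proposed with earlier results of these data known. Of the 38 genes, 16 act in mitochondria, 19 belong to peroxisomes, 1 (*Acot12*) encodes a cytosolic enzyme and 2 (*Ppara*, *Ppargc1a*) encode regulators. Mitochondria take up long-chain fatty acids as carnitine esters and shorten them in repeated rounds of β-oxidation, a cycle whose electrons pass through the electron transfer flavoprotein to the respiratory chain. Peroxisomes shorten very long-chain and branched fatty acids and bile acid precursors with oxidases of their own and hand the shortened products on. In the kidney, proximal tubule cells are known for their reliance on fatty acid oxidation and for their many peroxisomes, and PPARα, the protein of *Ppara*, is the nuclear receptor known to drive many genes of both routes.

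The libraries hold mRNA of podocyte fractions, each from 1 mouse. Podocytes are the filtering epithelial cells of the glomerulus, and the fractions were pulled out of the digested cortex with magnetic beads and antibodies against nephrin. All mice were male wildtype C57BL/6J. The young group (n = 6) was 4 months old and untreated. The saline group (n = 7) and the MCC950 group (n = 8) were both 19.5 months old, the former treated with saline and the latter with 10 mg/kg MCC950, an inhibitor of the NLRP3 inflammasome, for 6 weeks from 18 months of age. As the young mice received no injections, age and vehicle treatment cannot be told apart in the comparison of saline with young mice.

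Total counts ranged from 27375870 to 36827823 in young, 45772937 to 84876399 in saline and 35440472 to 58247271 in MCC950 libraries. The share of counts on the mitochondrial genome was 51.5% to 80.4% (median 71.1%), 63.0% to 79.2% (median 68.6%) and 49.9% to 63.7% (median 57.5%). The numbers in the sample labels run in a separate block for each group. Whether the groups were handled at different times is not stated in the labels. Markers of other cells of the cortex were measured in every fraction. Over the 14 podocyte markers, the summed level was 817 to 1675 CPM (counts per 1000000 counts of the library, scaled by TMM) in young, 351 to 589.6 CPM in saline and 433 to 665 CPM in MCC950 libraries, while the summed level of 13 proximal tubule markers was 1809.8 to 7070.4 CPM, 1968 to 4519 CPM and 2711 to 8209.8 CPM, and no marker of either list was at 0 in any library. In the comparison with age, the mean log2 CPM of the list was lower in saline libraries for podocytes (by -1.71), mesangium and smooth muscle (-1.18), endothelium (-1.09) and collecting duct (-0.59), and higher for B and plasma cells (1.90), T cells (1.22) and macrophages (0.92), with adjusted p of 0.00525 to 0.0396 (exact permutation tests, two-sided, adjusted over 18 comparisons). The proximal tubule list (-0.20, adjusted p = 0.499) and the loop of Henle and distal tubule list (-0.21, adjusted p = 0.164) missed the threshold in that exact test. With MCC950, the proximal tubule list was higher by 0.78 and the podocyte list by 0.48 (both adjusted p = 0.0161, exact permutation tests). The other 7 lists differed by -0.15 to -0.68, with adjusted p of 0.102 to 0.444 in the same exact tests. In such bulk libraries fewer cells of a type and less RNA per cell cannot be told apart.

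All 38 genes passed the filter on low counts. *Pex11a*, which encodes a membrane protein of peroxisome division, was close to the detection limit, with 0 to 0.274 (median 0.167) CPM in young and 0.0732 to 0.355 (median 0.195) CPM in MCC950 libraries and a count of 0 in young replicates 2 and 6. Every other gene had at least 63 counts in every library. Scaled by exon length, the highest median levels in saline libraries were those of *Etfb* (65.2 CPM per kb), *Hadh* (52.1), *Cpt1a* (44.4), *Acaa2* (34.6) and *Acadm* (29.6), all mitochondrial. The lowest were *Pex11a* (0.0735 CPM per kb), *Acot4* (0.708), *Acot3* (1.31) and *Acox2* (2.48), all peroxisomal. Among the peroxisomal genes, *Acaa1b* (23.2 CPM per kb), *Ehhadh* (22.4) and *Acaa1a* (19.7) stood highest. The saline libraries of these 3 genes spanned 18.8 to 72.9 (median 39.1), 44.9 to 166 (median 66.6) and 24.4 to 43.1 (median 34.7) CPM, so that the order of neighbours was within the spread between mice.

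The promoters of 34 of the 38 genes were read from RefSeq on GRCm38.p6, in windows of 300 bases of which 250 precede the start site. The response element of PPARα is a direct repeat of the hexamer AGGTCA with a single base between, and its letters stood on either strand in 0 of the 34 genes and in 0.0481% of the 27025 genes in the table. The looser form, the same repeat of AGGNCA, stood in 0 of the 34 and in 0.451% of all genes. The hexamer AGGTCA alone, which is contained in the repeat, stood on either strand in 7 of the 34 genes (20.6%) and in 18.1% of all genes. The 7 were *Acot4*, *Acadm*, *Acadvl*, *Cpt1a*, *Acot12*, *Acot3* and *Phyh*. The 100 bases before the start site are shown for 4 genes, *Acnat1* and *Acnat2* because their levels differed most between saline and MCC950 libraries, and *Acot4* and *Acadvl* because their hexamer lies close to the start, at -13 to -8 and at -87 to -82 counted from the start site. The stretches lie at chr4:49451110-49451209 (minus strand), chr4:49405759-49405858 (minus strand, the second start listed for this gene), chr12:84038279-84038378 (plus strand) and chr11:70015429-70015528 (minus strand), and capitals mark the hexamer on either strand.
Acnat1: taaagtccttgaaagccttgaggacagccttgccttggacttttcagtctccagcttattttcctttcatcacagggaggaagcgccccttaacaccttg
Acnat2: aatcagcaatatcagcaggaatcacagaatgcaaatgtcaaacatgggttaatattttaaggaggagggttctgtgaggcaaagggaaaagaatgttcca
Acot4: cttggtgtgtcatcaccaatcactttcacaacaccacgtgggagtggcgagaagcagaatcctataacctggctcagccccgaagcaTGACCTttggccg
Acadvl: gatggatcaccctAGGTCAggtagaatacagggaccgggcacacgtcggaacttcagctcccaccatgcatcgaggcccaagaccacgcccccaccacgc
Of the 13 genes with a promoter entry that were called higher with MCC950, 2 (*Acot4* and *Acadm*) held a hexamer in the window. A match is a description of the letters in this window only.

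The first comparison asked what differed between the fractions of middle-aged saline-treated and young mice. Of the 38 genes, 1 passed the test. In edgeR's quasi-likelihood test, 1 gene was lower in saline libraries and 0 were higher at an adjusted p under 0.05, with 16377 genes in the fit, against 12.4% lower and 12.2% higher among all genes. Before adjustment, at p under 0.05, edgeR gave 3 lower and 0 higher, against 17.7% and 19.2% of all genes. In DESeq2 the adjusted counts were 2 lower and 0 higher, against 13.7% and 11.8%. The log2 fold change was above 0 for 18 and below 0 for 20 genes, where 52.7% of all genes lay above 0, with a median of -0.01 beside 0.02 over all genes. The median was 0.01 for the mitochondrial and -0.01 for the peroxisomal genes. No gene had groups that did not overlap, where 4.51% of all genes did so with higher and 4.86% with lower levels in saline libraries.

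The gene that fell was *Acnat2* (Entrez 209186, chr4:49374458-49408151 on mm10), which encodes a peroxisomal acyltransferase of the family that joins fatty acids to amino acids. It was measured at 6.35 to 20.9 (median 17.5) CPM in young and 3.44 to 15.1 (median 8.23) CPM in saline libraries, and 3 of the 7 saline libraries lay below the lowest young one. The log2 fold change was -0.98 ± 0.30 (SE), adjusted p = 0.0196. The test passed in each of the 21 fits that left out 1 library, with log2 fold changes from -1.21 to -0.86 (highest adjusted p = 0.0461 in edgeR). The fits without an MCC950 library kept all saline and young libraries and so touch this comparison only through the shared fit. Its neighbour *Acnat1* (Entrez 230161, chr4:49443532-49481315), which encodes an enzyme known to conjugate fatty acids with taurine, was at 7.52 to 10.6 (median 7.81) CPM in young and 2.07 to 8.93 (median 4.54) CPM in saline libraries. There, 5 of 7 saline libraries lay below the lowest young one, and the test gave -0.62 ± 0.29 (SE), adjusted p = 0.131. Of the 50-base stretches of their transcripts, 28.0% of those of *Acnat1* also occur in *Acnat2* and 30.2% of those of *Acnat2* in *Acnat1*, so the division of reads between these 2 genes is uncertain.

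The other peroxisomal genes with the smallest p were of mixed direction, and none passed the test. *Abcd3*, the transporter that carries fatty acids into the peroxisome, was at 49.0 to 100.0 (median 67.4) CPM in young and 43.7 to 71.6 (median 50.4) CPM in saline libraries (log2 fold change -0.31 ± 0.16, SE, adjusted p = 0.183). *Crot*, which makes carnitine esters of the shortened products for export, was at 23.8 to 40.3 (median 26.2) CPM in young libraries and had a log2 fold change of -0.21 ± 0.17 (SE), adjusted p = 0.377. *Eci2*, an isomerase for unsaturated fatty acids, was at 13.1 to 24.6 (median 16.1) CPM and 13.9 to 33.5 (median 20.04) CPM (log2 fold change 0.35 ± 0.20, SE, adjusted p = 0.206). *Acaa1a*, a thiolase of the last step of the peroxisomal cycle, was at 23.5 to 34.5 (median 27.3) CPM and 24.4 to 43.1 (median 34.7) CPM, with 4 of 7 saline libraries above the highest young one (log2 fold change 0.27 ± 0.15, SE, adjusted p = 0.210).

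In the mitochondrial route, neither subunit of the electron transfer flavoprotein passed the test in edgeR. *Etfa* was at 5.02 to 9.76 (median 6.52) CPM in young and 3.91 to 6.24 (median 5.13) CPM in saline libraries (log2 fold change -0.45 ± 0.18, SE, adjusted p = 0.0770 in edgeR), and it was the second gene called lower by DESeq2. *Etfb* was at 41.0 to 83.4 (median 53.2) CPM and 46.9 to 81.6 (median 58.2) CPM (log2 fold change 0.10 ± 0.18, SE, adjusted p = 0.721), and the difference between the fold changes of the 2 subunits was not tested. *Etfdh*, whose product passes the electrons on to ubiquinone, was at 29.5 to 54.0 (median 36.8) CPM and 26.1 to 41.7 (median 29.8) CPM and gave -0.24 ± 0.14 (SE), adjusted p = 0.207, with 3 of 7 saline libraries below the young range. *Hadhb*, the β subunit of the trifunctional protein, was at 20.3 to 30.0 (median 23.9) CPM and 17.3 to 28.3 (median 20.9) CPM and gave -0.20 ± 0.12 (SE), adjusted p = 0.247, and *Hadha*, its α subunit, 0.0049 ± 0.12 (SE), adjusted p = 0.981. The groups overlapped for all of these genes. The acyl-CoA dehydrogenases of very long, long, medium and short chains (*Acadvl*, *Acadl*, *Acadm*, *Acads*) had log2 fold changes of 0.11, 0.08, 0.02 and -0.17, with adjusted p of 0.490 to 0.941, and *Acads* ranged over 31.7 to 64.0 (median 41.2) CPM in young libraries. The carnitine carrier *Slc25a20* was at 8.95 to 17.5 (median 12.6) CPM in young and 9.81 to 21.1 (median 14.6) CPM in saline libraries (log2 fold change 0.19 ± 0.19, SE, adjusted p = 0.491).

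The second comparison asked what differed between MCC950-treated and saline-treated mice of the same age. Of the 38 genes, 15 rose with MCC950 and 0 fell (edgeR, adjusted p under 0.05). Among all genes 11.9% were called higher and 4.86% lower. Before adjustment, at p under 0.05, edgeR gave 27 higher and 0 lower, against 20.1% and 11.4% of all genes. DESeq2 called 20 higher and 0 lower, against 13.3% and 7.44%. The 15 were 6 of the 16 mitochondrial genes and 9 of the 19 peroxisomal genes. The log2 fold change was above 0 in 36 of the 38 genes, where 50.5% of all genes lay above 0, and the median was 0.43 (a 1.35-fold higher level) beside 0.00281 over all genes. The median was 0.43 for the mitochondrial and 0.50 for the peroxisomal genes. The 2 genes below 0 were *Cpt1a* and *Ppargc1a*. The plot of log2 fold changes gives every gene in both comparisons.

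**Figure D1:**
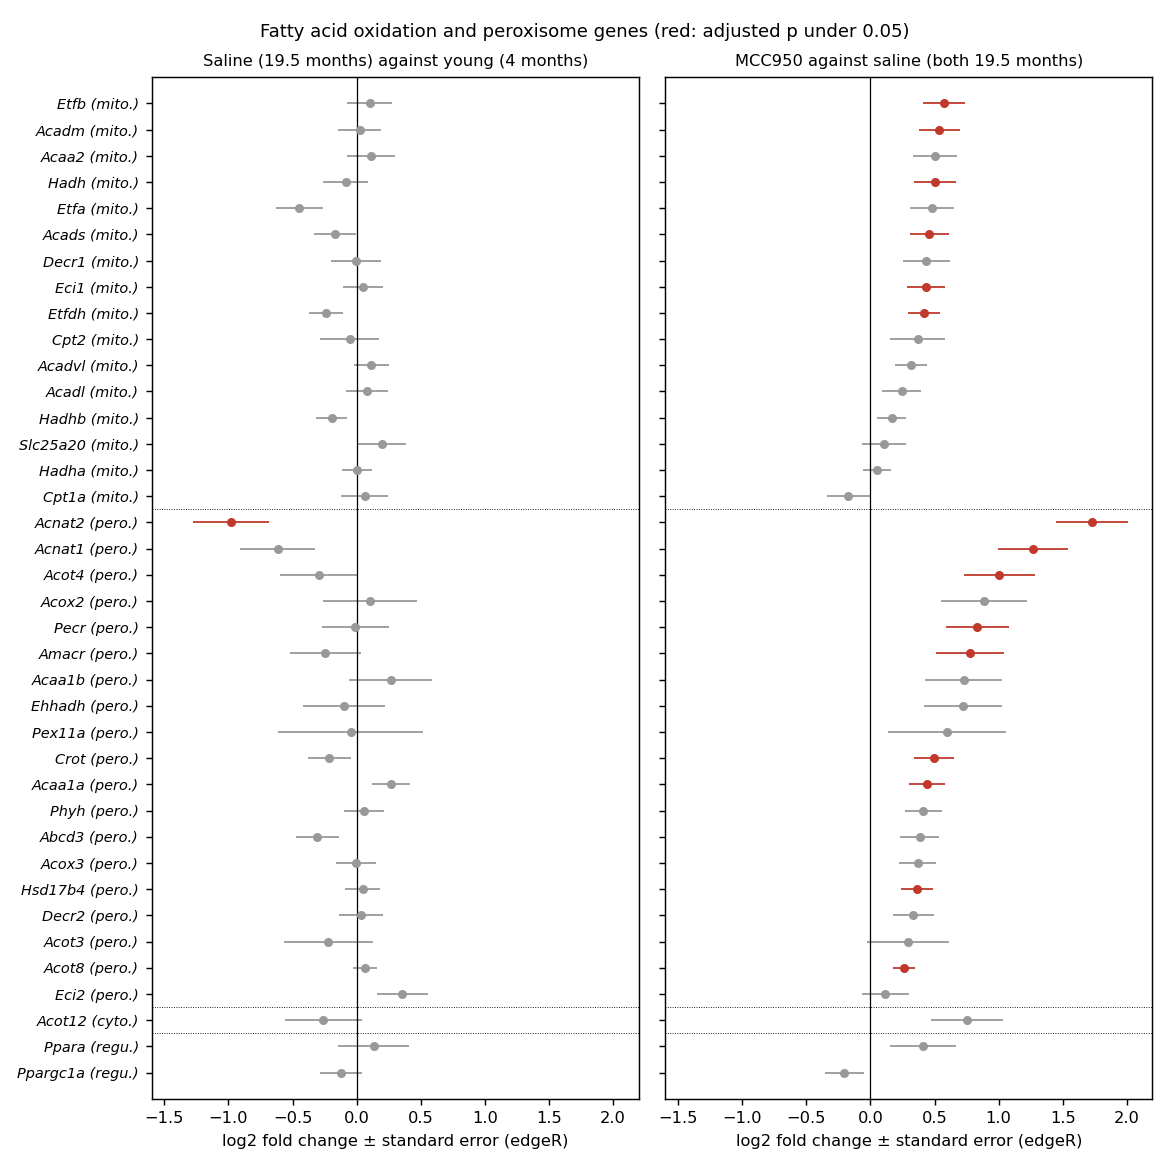
Log2 fold change with its standard error (horizontal axis) of each of the 38 genes (vertical axis, by class) for saline against young libraries (left) and MCC950 against saline libraries (right), with genes at an adjusted p under 0.05 in red. In the left panel 1 gene, *Acnat2*, is red, and in the right panel 15 genes are red and 36 of 38 points lie above 0.

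The level of these genes and that of the proximal tubule markers are given side by side for the libraries at either end. The summed level of the 38 genes was 1017 to 1954 CPM in young, 1032 to 1856.5 CPM in saline and 1186 to 2352 CPM in MCC950 libraries. In the MCC950 group the highest sum (2352 CPM) and the highest proximal tubule sum (8209.8 CPM) were both those of replicate 1, and the lowest of both (1186 and 2711 CPM) were those of replicate 7. In the young group replicate 1 was highest in both (1954 and 7070.4 CPM) and replicate 4 lowest in both (1017 and 1809.8 CPM). In the saline group the highest sum of the 38 genes was that of replicate 5 (1856.5 CPM), which was second in the proximal tubule sum (3893 CPM), while replicate 1 was highest in the latter (4519 CPM) and second in the former (1618 CPM). The lowest sum of the 38 genes was that of saline replicate 3 (1032 CPM), whose proximal tubule sum ranked 6 of 7 (2603 CPM), and the lowest proximal tubule sum was that of saline replicate 4 (1968 CPM), which ranked 5 of 7 for the 38 genes (1107 CPM). Of the 13 proximal tubule markers, 7 were called higher and 0 lower with MCC950.

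**Figure D2:**
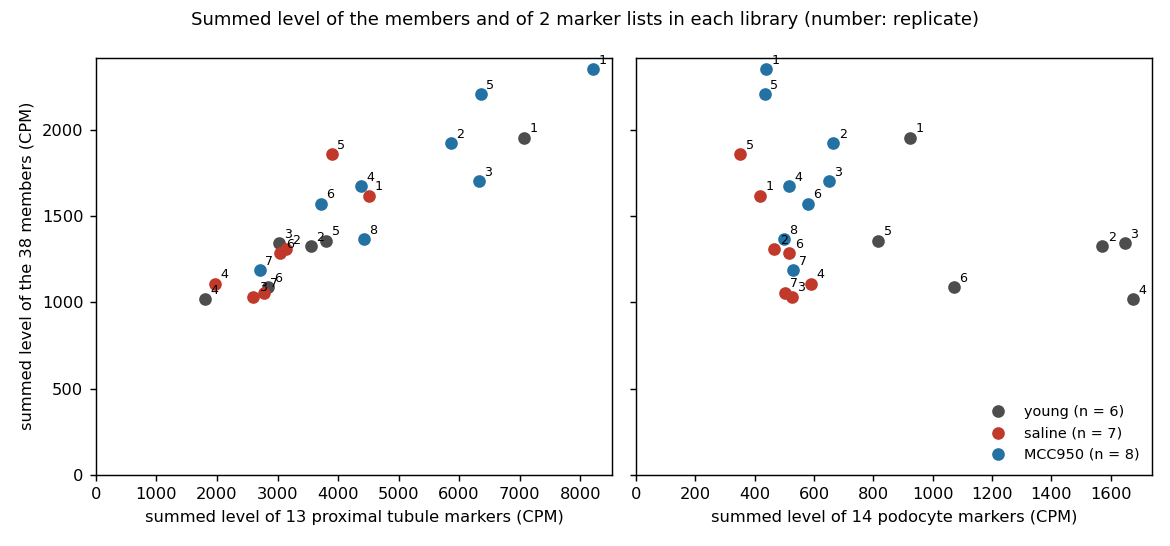
Summed level of the 38 genes in CPM (vertical axis) against the summed level of 13 proximal tubule markers (left) and of 14 podocyte markers (right) in CPM (horizontal axes), with 1 point per library numbered by replicate. The point farthest right and highest in the left panel is MCC950 replicate 1, at 8209.8 and 2352 CPM, and the young libraries spread farthest to the right in the podocyte panel.

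With the proximal tubule score of each library as a covariate in the fit, 1 of the 38 genes was called higher with MCC950, against 2.92% of all genes, and 1 lower, against 2.23% of all genes. The gene that rose was *Acnat2* (log2 fold change 1.45, adjusted p = 0.00934) and the gene that fell was *Cpt1a* (-0.61, adjusted p = 0.0173). *Acnat1* (0.71, adjusted p = 0.0886) was no longer called, and 14 of the 38 genes had a log2 fold change above 0. With the podocyte score as the covariate in place of the proximal tubule score, 28 genes were called higher and 0 lower, against 15.1% and 7.19% of all genes.

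**Figure D3:**
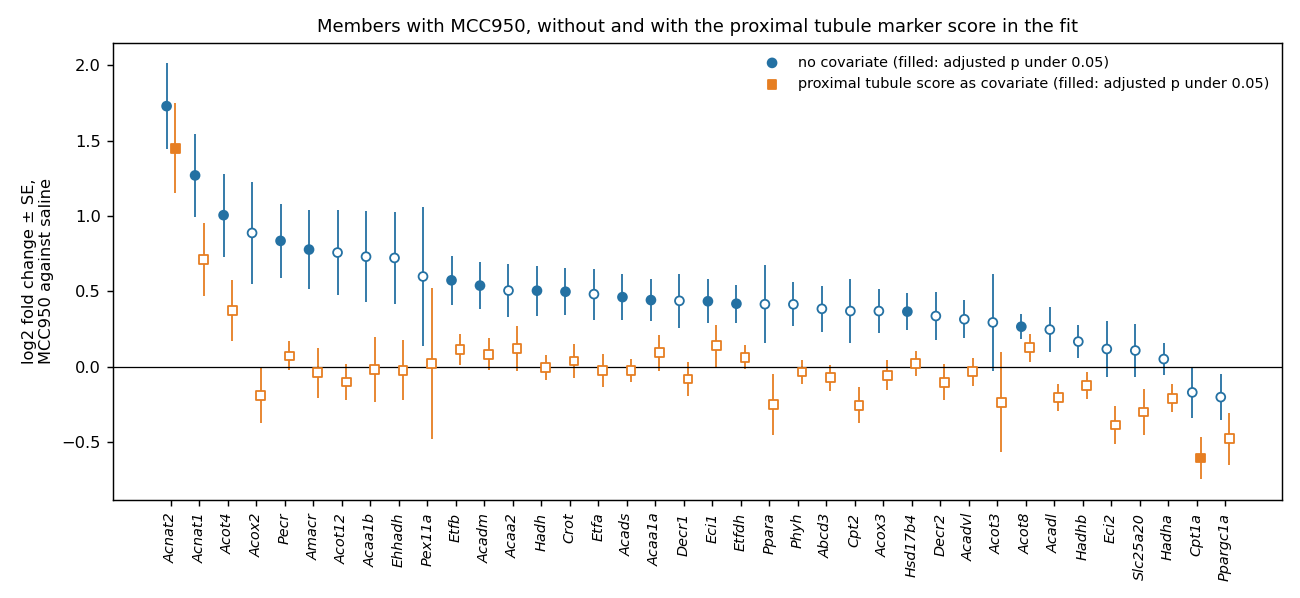
Log2 fold change with MCC950 against saline and its standard error (vertical axis) of the 38 genes (horizontal axis), without a covariate (circles) and with the proximal tubule score as a covariate (squares), filled where the adjusted p was under 0.05. There are 15 filled circles and 2 filled squares, those of *Acnat2* at 1.45 and *Cpt1a* at -0.61.

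*Acnat2* had the highest fold change of the 38. It was measured at 3.44 to 15.1 (median 8.23) CPM in saline and 19.4 to 41.3 (median 25.2) CPM in MCC950 libraries. Each of the 8 MCC950 libraries exceeded all 7 saline libraries, and it was the only one of the 38 genes without overlap between these groups, where 1.15% of all genes had no overlap and higher levels with MCC950 and 0.586% no overlap and lower levels. The log2 fold change was 1.73 ± 0.28 (SE), adjusted p = 0.00116. *Acnat1* was at 2.07 to 8.93 (median 4.54) CPM in saline and 7.57 to 23.8 (median 11.5) CPM in MCC950 libraries, of which 6 of 8 lay above the saline range, and its log2 fold change was 1.27 ± 0.27 (SE), adjusted p = 0.00606. The uncertain division of reads between the 2 genes applies here too. Their upstream stretches, printed above, hold no hexamer.

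*Acot4* (Entrez 171282, chr12:84037254-84044723) encodes a peroxisomal thioesterase known to act on succinyl-CoA. Its level was 2.11 to 11.1 (median 4.39) CPM in saline and 7.70 to 16.6 (median 9.69) CPM in MCC950 libraries, and the groups overlapped because 1 saline library reached 11.1 CPM. The log2 fold change was 1.00 ± 0.28 (SE), adjusted p = 0.0182. *Acot3*, its neighbour, which encodes a thioesterase of long-chain acyl-CoA, was at 3.02 to 15.1 (median 4.52) CPM and 4.18 to 13.7 (median 6.30) CPM (log2 fold change 0.29 ± 0.32, SE, adjusted p = 0.567) and was not called. The transcripts of these neighbours share 3.49% of the 50-base stretches of *Acot3* and 1.91% of those of *Acot4*. *Acot3* shares a further 4.94% with *Acot1* and 5.98% with *Acot5*, and *Acot4* 1.34% and 1.99%. Of the exon length of *Acot3*, 11.5% overlaps *Gm49366* on the same strand. On the opposite strand, *4732463B04Rik* overlaps 9.08% of *Acot3* and 9.91% of *Acot4*, so the origin of part of their reads is uncertain. Another thioesterase, *Acot8*, rose from 6.31 to 7.70 (median 6.84) CPM in saline to 6.83 to 9.48 (median 8.16) CPM in MCC950 libraries, with 6 of 8 MCC950 libraries above the saline range (log2 fold change 0.26 ± 0.08, SE, adjusted p = 0.0370). An overlap of 21.1% of its exon length with *Snx21* on the opposite strand leaves the origin of part of its reads uncertain, since the strand setting of the counting is not given in the sources used here.

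The other peroxisomal genes called, besides the thiolase *Acaa1a*, were *Pecr*, *Amacr*, *Hsd17b4* and *Crot*. *Pecr*, a reductase of *trans*-2-enoyl-CoA, was at 14.7 to 39.5 (median 23.5) CPM in saline and 26.2 to 70.2 (median 45.0) CPM in MCC950 libraries, and 7 of 8 MCC950 libraries lay above the saline range (log2 fold change 0.83 ± 0.25, SE, adjusted p = 0.0263). *Amacr*, the racemase that prepares branched chains for oxidation, was at 21.8 to 45.7 (median 31.8) CPM and 28.6 to 76.9 (median 51.1) CPM (log2 fold change 0.78 ± 0.26, SE, adjusted p = 0.0455). *Hsd17b4*, the D-bifunctional protein of the middle steps, was at 19.2 to 30.1 (median 24.7) CPM and 25.1 to 41.8 (median 31.0) CPM (log2 fold change 0.36 ± 0.12, SE, adjusted p = 0.0477). *Crot* was at 21.4 to 30.5 (median 23.3) CPM and 23.8 to 52.1 (median 32.4) CPM, with 4 of 8 MCC950 libraries above the saline range (log2 fold change 0.50 ± 0.16, SE, adjusted p = 0.0335). Each of these 4 genes had overlapping groups.

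The thiolases *Acaa1a* and *Acaa1b* are close copies, and 26.7% and 35.5% of their 50-base stretches are shared. *Acaa1a* was at 24.4 to 43.1 (median 34.7) CPM in saline and 32.7 to 61.3 (median 43.1) CPM in MCC950 libraries and was called higher (log2 fold change 0.44 ± 0.14, SE, adjusted p = 0.0359). *Acaa1b* was at 18.8 to 72.9 (median 39.1) CPM and 33.3 to 101.1 (median 58.5) CPM, with a log2 fold change of 0.73 ± 0.30 (SE), adjusted p = 0.0976, and was not called. The difference between the fold changes of the 2 thiolases was not tested. The oxidases of the first step were not called either. *Acox2*, which acts on bile acid precursors, gave 0.89 ± 0.34 (SE), adjusted p = 0.0727, with 5 of 8 MCC950 libraries above the saline range, and *Acox3* gave 0.37 ± 0.15 (SE), adjusted p = 0.0853, with 6 of 8 above it and 1 below it. *Ehhadh*, the L-bifunctional protein, gave 0.72 ± 0.30 (SE), adjusted p = 0.105, and its saline libraries ranged from 44.9 to 166 CPM. *Phyh*, which starts the breakdown of phytanic acid, was at 20.4 to 33.4 (median 24.4) CPM and 23.1 to 43.7 (median 33.0) CPM and stood just outside the threshold (log2 fold change 0.41 ± 0.15, SE, adjusted p = 0.0547). The remaining peroxisomal genes (*Abcd3*, *Decr2*, *Eci2* and *Pex11a*) had log2 fold changes of 0.12 to 0.60 and adjusted p of 0.0895 to 0.703. The cytosolic acetyl-CoA hydrolase *Acot12* gave 0.76 ± 0.28 (SE), adjusted p = 0.0667.

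**Figure D4:**
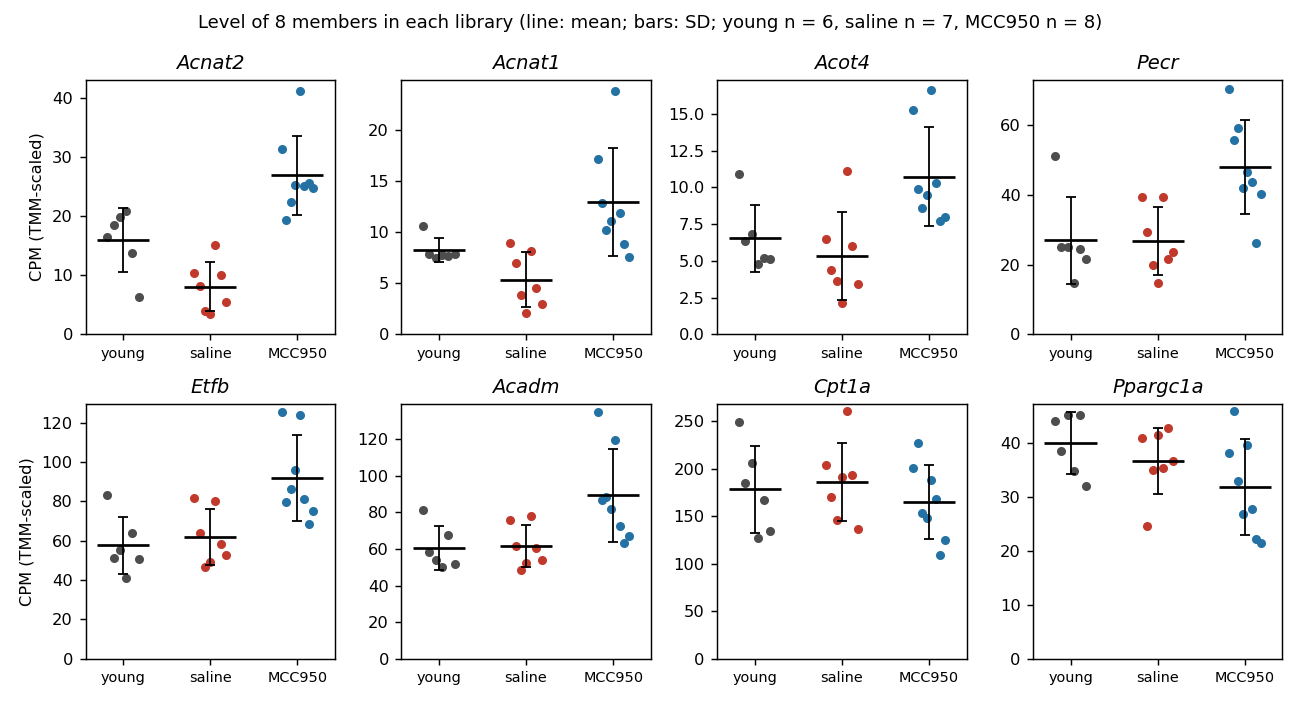
Level in CPM (vertical axes, from 0) of 8 genes in each library of the young, saline and MCC950 groups, with the mean as a line and the SD as bars. The MCC950 libraries of *Acnat2* (19.4 to 41.3 CPM) lie above all saline libraries (3.44 to 15.1 CPM), and the groups overlap in the other 7 panels.

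In the mitochondrial route, 6 genes rose with MCC950, all of them enzymes of the cycle or of its electron transfer. *Etfb* (Entrez 110826, chr7:43444072-43457800) was at 46.9 to 81.6 (median 58.2) CPM in saline and 68.6 to 125 (median 83.8) CPM in MCC950 libraries (log2 fold change 0.57 ± 0.16, SE, adjusted p = 0.0229). Of its exon length 69.1% overlaps the annotated gene *Gm45233* on the same strand. *Etfdh* was at 26.1 to 41.7 (median 29.8) CPM and 31.9 to 49.7 (median 44.8) CPM, with 5 of 8 MCC950 libraries above the saline range (log2 fold change 0.42 ± 0.13, SE, adjusted p = 0.0289). *Etfa*, the partner subunit of *Etfb*, was at 3.91 to 6.24 (median 5.13) CPM and 4.38 to 8.98 (median 7.49) CPM (log2 fold change 0.48 ± 0.17, SE, adjusted p = 0.0542) and was not called. The mean of *Etfa* was 7.01 ± 2.02 (SD) CPM in young (n = 6), 5.12 ± 1.04 (SD) CPM in saline (n = 7) and 7.17 ± 1.55 (SD) CPM in MCC950 libraries (n = 8).

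Among the acyl-CoA dehydrogenases, those of medium and short chains were called. *Acadm* (Entrez 11364, chr3:153922353-153944643) was at 48.5 to 77.9 (median 60.6) CPM in saline and 63.4 to 135 (median 84.3) CPM in MCC950 libraries, with 5 of 8 above the saline range (log2 fold change 0.54 ± 0.16, SE, adjusted p = 0.0254). *Acads* was at 30.4 to 47.6 (median 35.1) CPM and 34.0 to 71.8 (median 50.5) CPM, with 6 of 8 above that range (log2 fold change 0.46 ± 0.15, SE, adjusted p = 0.0440). *Acadvl*, for very long chains, was at 33.3 to 49.9 (median 37.3) CPM and 34.5 to 62.6 (median 49.98) CPM (log2 fold change 0.31 ± 0.12, SE, adjusted p = 0.0868), and *Acadl*, for long chains, gave 0.25 ± 0.15 (SE), adjusted p = 0.277, neither of them called. Of the exon length of *Acadvl*, 45% overlaps *Dvl2* on the opposite strand, so that the origin of part of its reads is uncertain. The differences between the fold changes of these dehydrogenases were not tested. *Hadh*, which oxidizes hydroxyacyl-CoA of short and medium chains, was at 84.8 to 139.8 (median 93.2) CPM and 95.3 to 203 (median 148) CPM and was called (log2 fold change 0.50 ± 0.17, SE, adjusted p = 0.0411). The subunits of the trifunctional protein, which does the same for long chains, gave 0.05 ± 0.11 (SE), adjusted p = 0.791 for *Hadha* and 0.17 ± 0.11 (SE), adjusted p = 0.322 for *Hadhb*. *Eci1*, an isomerase for unsaturated fatty acids, was at 9.74 to 20.3 (median 12.7) CPM and 13.9 to 24.003 (median 17.6) CPM and was called (log2 fold change 0.43 ± 0.15, SE, adjusted p = 0.0474), and *Decr1*, the reductase of the same task, was not (log2 fold change 0.44 ± 0.18, SE, adjusted p = 0.100). *Acaa2*, the thiolase that ends the cycle, was at 42.7 to 93.2 (median 52.5) CPM and 57.0 to 113.1 (median 78.8) CPM and gave 0.50 ± 0.17 (SE), adjusted p = 0.0514.

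The carnitine shuttle, through which long chains enter the mitochondrion, had no gene past the threshold. *Cpt1a*, the enzyme of the outer membrane that commits long chains to oxidation, was at 136 to 261 (median 191) CPM in saline and 109.5 to 227 (median 161) CPM in MCC950 libraries, with 2 of 8 MCC950 libraries below the saline range (log2 fold change -0.17 ± 0.17, SE, adjusted p = 0.515). The carrier *Slc25a20* gave 0.11 ± 0.17 (SE), adjusted p = 0.716 and the inner enzyme *Cpt2* 0.37 ± 0.21 (SE), adjusted p = 0.244. The regulators gave values of opposite sign without a call. *Ppara* was at 12.2 to 29.5 (median 18.3) CPM in young, 12.4 to 35.0 (median 21.6) CPM in saline and 13.5 to 41.8 (median 27.9) CPM in MCC950 libraries, with log2 fold changes of 0.13 ± 0.28 (SE), adjusted p = 0.771 with age and 0.41 ± 0.26 (SE), adjusted p = 0.283 with MCC950. *Ppargc1a*, a coactivator of mitochondrial genes, was at 32.0 to 45.2 (median 41.3) CPM, 24.5 to 42.8 (median 36.5) CPM and 21.4 to 45.9 (median 30.3) CPM, with -0.13 ± 0.16 (SE), adjusted p = 0.622 with age and -0.20 ± 0.15 (SE), adjusted p = 0.382 with MCC950.

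The number of genes called with MCC950 depended on single libraries. It was 3 without saline replicate 3, 4 or 7 or MCC950 replicate 1, and 4 without MCC950 replicate 5. It was 5 without saline replicate 6, 7 without saline replicate 2 and 8 without MCC950 replicate 3 or 4. Without young replicate 3 or 5 or MCC950 replicate 2 it was 9, and without young replicate 2 it was 10. Higher counts were 16 without MCC950 replicate 6, 19 without young replicate 1, 22 without saline replicate 5 and 23 without MCC950 replicate 7. The remaining fits gave 13 to 15. *Acnat1*, *Acnat2* and *Acot4* were called in each of the 21 fits. *Etfb*, *Acadm* and *Pecr* were called in 16 of 21, and *Amacr* and *Eci1* in 5 of 21. The direction moved less, since 35 or 36 of the 38 genes lay above 0 in every one of these fits. The shares of all genes called in these fits are not given here, and the counts cannot be read as particular to these 38 genes.

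**Figure D5:**
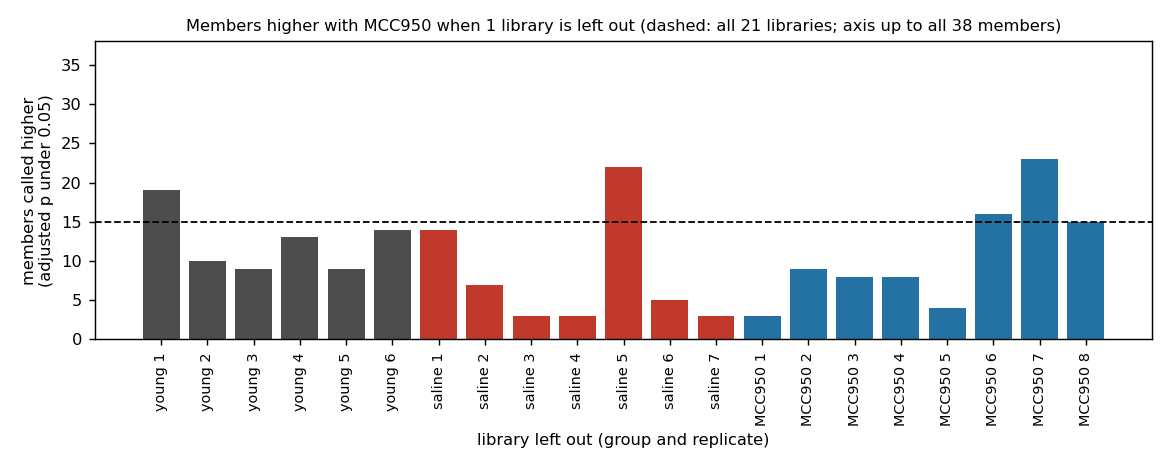
Number of the 38 genes called higher with MCC950 (vertical axis) when the library named on the horizontal axis was left out of the fit, coloured by group, with the count of 15 in the fit of all 21 libraries as a dashed line. The bars run from 3 to 23. The shares of all genes called in the same fits are not shown.

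The third comparison set the MCC950 libraries beside the young ones. It shares its libraries with the other comparisons and is given for its own values. Of the 38 genes, 13 were higher in MCC950 than in young libraries and 0 lower, against 21.8% and 16.5% of all genes, and 35 of 38 log2 fold changes lay above 0, against 58.1% of all genes. Before adjustment, at p under 0.05, edgeR gave 20 higher and 0 lower, against 27.8% and 20% of all genes. DESeq2 called 13 higher and 0 lower, against 18.1% and 17.7%. The 13 of edgeR were 5 mitochondrial (*Etfb*, *Acadm*, *Acaa2*, *Acadvl*, *Eci1*) and 8 peroxisomal genes (*Acaa1a*, *Acot8*, *Pecr*, *Hsd17b4*, *Acaa1b*, *Phyh*, *Acox2*, *Acnat2*). *Acaa1a* had the smallest adjusted p, with 23.5 to 34.5 (median 27.3) CPM in young and 32.7 to 61.3 (median 43.1) CPM in MCC950 libraries, of which 7 of 8 lay above the young range (log2 fold change 0.71 ± 0.15, SE, adjusted p = 0.00102). *Etfb* gave 0.67 ± 0.17 (SE), adjusted p = 0.00461. *Acaa1b*, at 22.5 to 52.3 (median 29.1) CPM in young libraries, gave 0.99 ± 0.32 (SE), adjusted p = 0.0184, and *Acnat2* gave 0.75 ± 0.29 (SE), adjusted p = 0.0460. In young libraries *Acaa2* was at 43.8 to 70.7 (median 51.9) CPM, *Acadvl* at 30.1 to 45.2 (median 37.0) CPM and *Eci1* at 9.57 to 17.3 (median 12.9) CPM, and their log2 fold changes were 0.62, 0.43 and 0.48. *Acot8* was at 4.99 to 7.44 (median 6.72) CPM, *Pecr* at 14.7 to 51.2 (median 24.6) CPM, *Hsd17b4* at 19.5 to 31.4 (median 23.8) CPM and *Phyh* at 18.6 to 34.5 (median 23.6) CPM, with log2 fold changes of 0.33, 0.82, 0.41 and 0.47. *Hadh*, at 82.8 to 160.1 (median 106.4) CPM in young libraries, missed the threshold (log2 fold change 0.42 ± 0.17, SE, adjusted p = 0.0619), as did *Acnat1* (log2 fold change 0.65 ± 0.29, SE, adjusted p = 0.0759) and *Acot4* (log2 fold change 0.71 ± 0.29, SE, adjusted p = 0.0599). No gene had groups without overlap, which 3.28% of all genes showed with higher and 4.66% with lower levels. The count was 24 without young replicate 1, 7 without young replicate 4 and 8 without young replicate 6, and the shares of all genes in these fits are not given here. With the proximal tubule score as a covariate, 4 genes were called higher (*Pecr*, *Acot8*, *Etfb*, *Acaa1a*) and 5 lower (*Cpt1a*, *Abcd3*, *Hadhb*, *Ppargc1a*, *Etfa*), against 22.7% and 16.6% of all genes.

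Other genes of these pathways were counted in edgeR by the same rule, where 12.2% of all genes rose and 12.4% fell with age and 11.9% rose and 4.86% fell with MCC950. The counts at an unadjusted p under 0.05 stand in parentheses. A further 31 genes were listed for mitochondrial fatty acid and ketone metabolism, and the place of each protein in the cell was not checked. Of these, 0 rose and 3 fell with age (unadjusted, 1 higher and 3 lower), with a median log2 fold change of -0.05. With MCC950, 10 rose and 0 fell (unadjusted, 19 higher and 0 lower), with a median of 0.34. The largest rise with MCC950 was that of *Acsm1*, a medium-chain acyl-CoA synthetase, from 5.76 to 12.1 CPM (median 7.45) in saline to 10.6 to 28.0 CPM (median 21.5) in MCC950 libraries (log2 fold change 1.25 ± 0.24, SE, adjusted p = 0.00326). The largest fall with age was that of *Cpt1c*, a brain-type gene of the carnitine acyltransferase family, from 0.904 to 2.01 CPM (median 1.23) in young to 0.511 to 1.13 CPM (median 0.956) in saline libraries (log2 fold change -0.57 ± 0.20, SE, adjusted p = 0.0438). Of 29 further peroxisomal enzymes and transporters tested, 0 rose and 2 fell with age and 12 rose and 0 fell with MCC950, with medians of -0.02 and 0.48 (unadjusted, 1 higher and 3 lower with age and 17 higher and 1 lower with MCC950). *Dao*, D-amino acid oxidase, led with 17.7 to 49.0 CPM (median 33.4) in saline and 37.3 to 95.2 CPM (median 62.4) in MCC950 libraries (log2 fold change 1.00 ± 0.23, SE, adjusted p = 0.00753). *Far1*, which makes fatty alcohols for ether lipids, fell with age from 36.7 to 44.4 CPM to 25.3 to 31.1 CPM, without overlap (log2 fold change -0.45 ± 0.07, SE, adjusted p = 0.000236). *Acsl1* stood in both the mitochondrial and the peroxisomal list of further genes.

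Of 16 peroxins, the proteins that build the peroxisome, 0 changed with age (unadjusted, 0 higher and 1 lower) and 5 rose and 0 fell with MCC950 (unadjusted, 7 higher and 0 lower). The largest of these rises was that of *Pex11g*, from 2.44 to 3.86 CPM (median 2.98) to 2.92 to 5.92 CPM (median 4.21) (log2 fold change 0.50 ± 0.17, SE, adjusted p = 0.0424). Of 18 genes of fatty acid uptake and known PPARα targets tested, 1 rose and 0 fell with age (unadjusted, 2 higher and 0 lower) and 1 rose and 1 fell with MCC950 (unadjusted, 4 higher and 1 lower). The rise of 1 in 18 lay below the share of all genes called higher in both comparisons. The median log2 fold change of these 18 genes was 0.28 with age and 0.41 with MCC950, beside 0.02 and 0.00281 over all genes. The rise with age was that of *Plin2*, which coats lipid droplets, at 23.9 to 35.5 CPM in young and 55.3 to 76.1 CPM in saline libraries, without overlap (log2 fold change 1.12 ± 0.15, SE, adjusted p = 4.32e-05). With MCC950, *Aqp7*, a glycerol channel, rose from 0.812 to 3.24 CPM (median 2.00) to 2.31 to 6.32 CPM (median 3.80) (log2 fold change 0.95 ± 0.30, SE, adjusted p = 0.0321) and *Fabp4*, a fatty acid binding protein, fell from 4.85 to 11.3 CPM (median 6.88) to 2.76 to 6.91 CPM (median 5.23) (log2 fold change -0.71 ± 0.22, SE, adjusted p = 0.0349). Of 13 receptors and coactivators tested, 2 rose and 1 fell with age (unadjusted, 2 higher and 3 lower), against 12.2% and 12.4% of all genes. With MCC950, 4 rose and 0 fell (unadjusted, 5 higher and 0 lower), against 11.9% and 4.86% of all genes. With age, *Pparg*, a nuclear receptor of fat storage, rose from 1.47 to 5.58 CPM (median 4.35) to 5.07 to 8.43 CPM (median 7.10) (log2 fold change 0.82 ± 0.28, SE, adjusted p = 0.0343) and *Ncor1*, a corepressor, fell from 55.7 to 66.7 CPM (median 62.9) to 47.3 to 57.4 CPM (median 49.2) (log2 fold change -0.31 ± 0.07, SE, adjusted p = 0.00184). With MCC950, *Hnf4a*, a nuclear receptor known from liver and proximal tubule, rose from 58.2 to 143 CPM (median 100.3) to 141 to 272 CPM (median 209), at 1.06 ± 0.20 (SE, adjusted p = 0.003), while the proximal tubule list rose in the same libraries.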

How the data were processed

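Podocyte fractions of 6 young, 7 saline-treated and 8 MCC950-treated mice were sequenced as mRNA, and the samples were grouped by their labels. After trimming with TrimGalore and alignment to mm10 with Bowtie2, the authors made the deposited counts of reads per gene with featureCounts. The annotation release, the strand setting and the handling of reads with several alignments are not given in the sources used here, and each of these could move reads between overlapping or near-identical genes. The study's text gives 5 mice of 4 months, the labels 6 young libraries, and all 6 were used. The authors' normalized table covers 20 libraries and was not used. Gene symbols came from RefSeq on GRCm38.p6 and matched 25275 of the 27179 gene numbers, and 1904 remained unnamed. Exon lengths were unions of the protein-coding transcripts of GENCODE vM21.

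The test for differences was that of edgeR 4.0.16 under R 4.3.3 (filterByExpr by group, TMM, quasi-likelihood F test, all 3 groups in 1 fit) on 16377 genes, with p adjusted over all of them by Benjamini and Hochberg and called under 0.05. Fold changes are given with the standard error from the F statistic. Levels are CPM scaled by TMM, and marker scores are the mean log2 CPM (prior count 2) of 9 lists, compared in scipy 1.17.1 by permutation tests that were exact and two-sided (pandas 2.3.3, numpy 2.4.6, Python 3.11.15). The lists were of macrophages, T cells, B and plasma cells, endothelium, mesangium and smooth muscle, podocytes, collecting duct, proximal tubule, and loop of Henle with distal tubule. Besides leaving out each of the 21 libraries in turn, 11 settings were tried, among them DESeq2 1.42.0, other filters and size factors, the replicate number as a block, marker scores as covariates and counts thinned to 5804891 per library. The workflow was tested on simulated counts for saline against young libraries. Of 198 genes given a change of at least 2-fold, 164 were called, and 13 unchanged genes were called too. With no gene changed, 1 was called. Smaller changes and the other comparisons were not simulated.

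The 38 genes, the further gene lists and the tests were chosen with earlier results of these data known. Library values are given for the 6 mitochondrial and 6 peroxisomal genes of smallest adjusted p in each comparison, for near neighbours and for the regulators, and of each further list for the called gene with the largest rise and the largest fall in the comparisons with age and with MCC950. Genes named besides these were chosen after their values were seen. No library duplicated another (lowest chi-square per degree of freedom 17.7 within a group). Libraries were not paired by replicate number, since those of the same number correlated at -0.06 to 0.35 in the comparison with age and at -0.14 to 0.33 with MCC950. The count of a gene in a library sets how precisely reads sample its level there. The standard errors of the fold changes also include the spread between mice, and they cover these mice only.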

Additional observations from a re-analysis of the deposited data

Results flagged for a closer look

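Each of the 38 genes was checked in each group for a library far from the others, by the gap on the log2 scale to its nearest neighbour as a share of the range of the group. Over the 38 genes in 3 groups 4 cases were marked, where chance marks about 1 group in 20. *Ehhadh* was highest in young replicate 1, at 164 CPM beside 80.4 CPM in the next library (0.662 of the range). *Acnat1* was highest in the same library, at 10.6 CPM beside 7.90 CPM (0.858 of the range). That library also had the highest proximal tubule sum of the young group, 7070.4 CPM, and the part of this in the 2 values was not tested. *Acnat2* was lowest in young replicate 6, at 6.35 CPM beside 13.8 CPM (0.652 of the range), and its fall with age was called without that library too. *Ppargc1a* was lowest in saline replicate 2, at 24.5 CPM beside 35.0 CPM (0.638 of the range).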

How the results depend on the processing

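The proximal tubule markers rose with MCC950 in the same libraries, and the count of genes called changed with their score in the fit. With this score as a covariate the counts were 1 higher and 1 lower with MCC950, 3 higher and 2 lower with age (16.6% and 14% of all genes), and 4 higher and 5 lower in MCC950 against young libraries. The log2 fold change then turned with MCC950 for *Acads* (-0.0257), *Hadh* (-0.0068) and *Amacr* (-0.0424), and against young libraries for *Etfa* (-0.33) and *Abcd3* (-0.24), and 19, 8 and 9 further uncalled genes changed sign with MCC950, against young libraries and with age. With the podocyte score the counts were 28 higher with MCC950, 0 lower with age (*Acnat2* at -1.83, adjusted p = 0.369) and 0 higher against young libraries, where *Acaa2* (-0.0859), *Etfb* (-0.0269), *Eci1* (-0.0122) and *Acaa1b* (-0.16) turned, and 19 and 20 further uncalled genes changed sign with age and against young libraries. The podocyte score was 4.76 to 5.87 (mean log2 CPM) in young, 2.97 to 4.03 in saline and 3.82 to 4.58 in MCC950 libraries, so that young libraries did not overlap the others in it. With this score as a covariate, 0.00611% of all genes were called higher and 0% lower with age, and 0.104% higher against young libraries. With the replicate number as a block, the pairing that the data do not bear out, 28 genes were higher with MCC950 (14.5% of all genes), 28 against young libraries (23.6%), and 2 higher (*Eci2*, *Acaa1a*) and 2 lower (*Acnat1*, *Acnat2*) with age (13.5% and 11.5% of all genes). Libraries correlated best with their own number in 2 and 1 of 6 (age) and in 2 and 2 of 7 (MCC950). Thinned to equal depth, 7 genes were higher with MCC950 (7.37% of all genes) and 1 lower against young libraries (17.4% of all genes). The study's threshold, an unadjusted p under 0.05 and over 2-fold, was applied here to the edgeR fit, while the study used DESeq2. At this threshold 3 were higher with MCC950 (1.68% of all genes), 0 against young libraries (4.05%) and 0 lower with age (2.92%). DESeq2 called 2 lower with age. Leaving out 1 library gave 0 to 0 higher and 1 to 2 lower with age (2 without young replicate 4 or 6 or saline replicate 1), 3 to 23 higher and 0 to 0 lower with MCC950, and 7 to 24 higher and 0 to 1 lower against young libraries (1 lower without young replicate 6, saline replicate 2 or MCC950 replicate 2). The shares of all genes called in the fits with 1 library left out are not given here. The cause of the differences between settings was not tested. Summed instead of averaged, the podocyte list no longer passed with MCC950 (0.16, adjusted p = 0.296, exact permutation test), and the B and plasma cell list did (-0.96, adjusted p = 0.0448, exact permutation test). Other size factors, filters, the fit of 2 groups and the mitochondrial genome left out kept every count within 1.5 times.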
